A study of Homo sapiens with 20 samples.

Results

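The genes that make and load small RNAs were followed through all 14 transcript abundance libraries of the series, namely DICER1, DROSHA, DGCR8, AGO1, AGO2, AGO3, AGO4, TARBP2, PRKRA and XPO5. They were taken by name, as 10 of 57087 genes and 109 of 193697 annotated transcripts. The libraries came from HEK293 and HEK293T, human embryonic kidney lines. The RNA-seq groups (mRNA wt and mRNA shDicer, n = 3 each) were HEK293T and the HEK293 2B line with a Dicer short hairpin (sh) RNA, and both received doxycycline at 3 µg/ml for 7 days. The chromatin RNA groups (chr wt, chr shDicer, chr shAgo2 and chr shDrosha, n = 2 each) held wild type cells, lines with doxycycline-inducible hairpins against Dicer or Ago2, and cells transfected with a Drosha hairpin plasmid. The chr shDicer and chr shAgo2 cells received doxycycline at 3 µg/ml for 72 hours. Whether the chromatin wild type cells and the Drosha cells received doxycycline was not given in the sources used here. Each inducible line is a line of its own, so line and hairpin cannot be told apart. Nothing in the labels says that replicates were separate cultures, and p-values then measure only the spread between these libraries.

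In the canonical pathway DROSHA, the nuclear RNase III, and its RNA-binding partner DGCR8 cut hairpins out of primary transcripts. XPO5 (exportin-5) carries the hairpins to the cytoplasm, and DICER1 cuts them to small RNA duplexes with the double-stranded RNA-binding partners TARBP2 and PRKRA. An Argonaute then keeps a single strand as a guide. AGO2 is the Argonaute best known for cutting targets, and the paralogs AGO1, AGO3 and AGO4 mainly act without cutting.

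DGCR8 is unusual in that its own transcript holds hairpins that DROSHA cuts, so the mature products are shown here with their seed (bases 2 to 8) in capitals, from RefSeq on GRCh38.p14, plus strand.
hsa-miR-3618: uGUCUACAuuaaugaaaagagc
hsa-miR-1306-5p: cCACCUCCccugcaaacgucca
hsa-miR-1306-3p: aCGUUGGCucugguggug
hsa-miR-3618 lies at chr22:20085797-20085818, inside the untranslated part of 3 annotated DGCR8 transcripts. The arms of miR-1306 lie at chr22:20086072-20086093 and chr22:20086112-20086129, in coding sequence of 3 DGCR8 transcripts and in an exon of 4. The seeds of the 3 products differ.

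Depth was 10216430 to 17215978 estimated counts in the RNA-seq libraries and 17484067 to 21553760 in the chromatin libraries. Cell identity was read in TPM (transcript abundance per length, scaled to a fixed library total). The 5 HEK293 markers checked summed to 110 to 174 TPM in RNA-seq and 112 to 215 in chromatin RNA, mostly VIM, which ranged from 189 to 200 in chr wt to 68.3 to 80.4 in chr shDicer. PAX2 and LHX1 were at most 0.162 TPM in RNA-seq. TFF1 and HBG1, of the breast and blood lists, were at 0 throughout, but other genes of the comparison lists were read on chromatin. In chr wt CD74 (blood) was at 12.9 to 13.7 TPM and GATA3 (breast) at 3.15 to 3.36. COL1A1 (fibroblast) was at 10.5 to 13.2 and SFTPB (lung) at 5.76 to 6.25. In RNA-seq CD74, GATA3, COL1A1 and SFTPB were at most 0.875 TPM. KRT19, a keratin of the breast list, was listed at 0 in both wt groups, at 10.6 to 11.6 TPM in mRNA shDicer, at 16.3 to 18.8 in chr shDicer, at 10.9 to 11.2 in chr shAgo2 and at 0.14 to 0.16 in chr shDrosha. NEFL, a neurofilament, went from 1.92 to 2.35 TPM in mRNA wt to 32.6 to 74.9 in mRNA shDicer, and from 2.79 to 3.36 in chr wt to 30.6 to 40.7 in chr shDicer and 21.0 to 21.1 in chr shAgo2, while NEFM went from 7.14 to 7.20 in chr wt to 0.987 to 1.08 in chr shDicer and 0.305 to 0.442 in chr shAgo2. The inducible lines thus stood apart from wt in several genes outside the pathway, and the part of this in the results was not tested.

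Levels between genes were read per length, as TPM summed over the transcripts of each gene. In mRNA wt the order ran from XPO5 at 28.6 TPM ± 5.73 (SD, n = 3) and PRKRA at 27.8 ± 2.40, which did not differ beyond their spread, through DICER1 at 18.5 ± 2.68, TARBP2 at 16.5 ± 2.12 and DROSHA at 13.1 ± 1.56. AGO2 stood at 8.60 ± 1.50, AGO3 at 7.74 ± 0.159 and DGCR8 at 7.55 ± 0.273, again within their spread, and AGO1 (3.07 ± 0.0191) and AGO4 (2.70 ± 0.131) were lowest. On chromatin the order differed. XPO5 was at 135 TPM ± 3.60 (SD, n = 2), DGCR8 at 124 ± 10.9, DROSHA at 99.9 ± 0.132 and AGO2 at 99.7 ± 5.71 in chr wt, while PRKRA was at 31.4 ± 2.63, DICER1 at 25.4 ± 0.075 and AGO4 at 7.31 ± 0.964. Chromatin holds unspliced RNA, and the share of counts on retained-intron transcripts differed between members. It was 79.0% ± 0.675 for DGCR8 in chr wt (SD, n = 2), 73.6% ± 1.60 for PRKRA and 58.2% ± 0.827 for TARBP2, against 46.8% ± 6.92, 18.5% ± 1.69 and 16.7% ± 3.05 in mRNA wt (SD, n = 3). For DROSHA it was 14.7% ± 1.78 in chr wt and 16.2% ± 0.939 in mRNA wt, for DICER1 6.07% ± 1.20 and for AGO2 4.86% ± 0.340 in chr wt, and AGO1 and AGO4 have no such transcript.

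The first comparison asked whether the Dicer hairpin lowered its own target in RNA-seq and whether its partners followed. DICER1 and AGO3 fell, AGO4 rose, and the other 7 members did not pass. Gene counts scaled between libraries by TMM to the same total (CPM) for DICER1 were 251, 257 and 231 in mRNA wt and 80.4, 94.2 and 88.1 in mRNA shDicer. Every shDicer library lay below every wt library. The log2 fold change was -1.49 ± 0.0804 (SE), a ratio of 0.356 (edgeR quasi-likelihood test, adjusted p = 1.28e-07). AGO3 read 67.2, 66.1 and 69.0 CPM in wt and 40.9, 42.9 and 48.0 in shDicer, with no overlap (log2 fold change -0.62 ± 0.0862, edgeR adjusted p = 0.000118). AGO4 moved the other way, from 27.6, 28.6 and 28.1 CPM to 48.3, 54.0 and 54.3 (log2 fold change 0.90 ± 0.0914, edgeR adjusted p = 1.24e-05). The threshold here was an adjusted p of 0.001, and 29.8% of the 15090 genes tested passed it, and 3 of 10 members is near that share. Their median log2 fold change was -0.08, against 0.01 over all genes. The AGO3 call was lost without mRNA wt replicate 1 (edgeR adjusted p = 0.00116) or 3 (0.00104), with counts rebuilt from TPM and transcript length (log2 fold change -0.22, 0.0485), and against its neighbouring genes (-0.33, 0.00822).

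Of the members that did not pass, XPO5 came nearest, at 197, 182 and 182 CPM in wt and 148, 164 and 144 in shDicer (log2 fold change -0.30 ± 0.0748, edgeR adjusted p = 0.00551). DGCR8 had a log2 fold change of -0.27 ± 0.0963 and PRKRA of 0.20 ± 0.0838. DROSHA (-0.02 ± 0.101), AGO1 (-0.08 ± 0.0758), AGO2 (0.12 ± 0.0933) and TARBP2 (-0.08 ± 0.168) overlapped between the groups, and TARBP2 had the widest error.

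**Figure D1:**
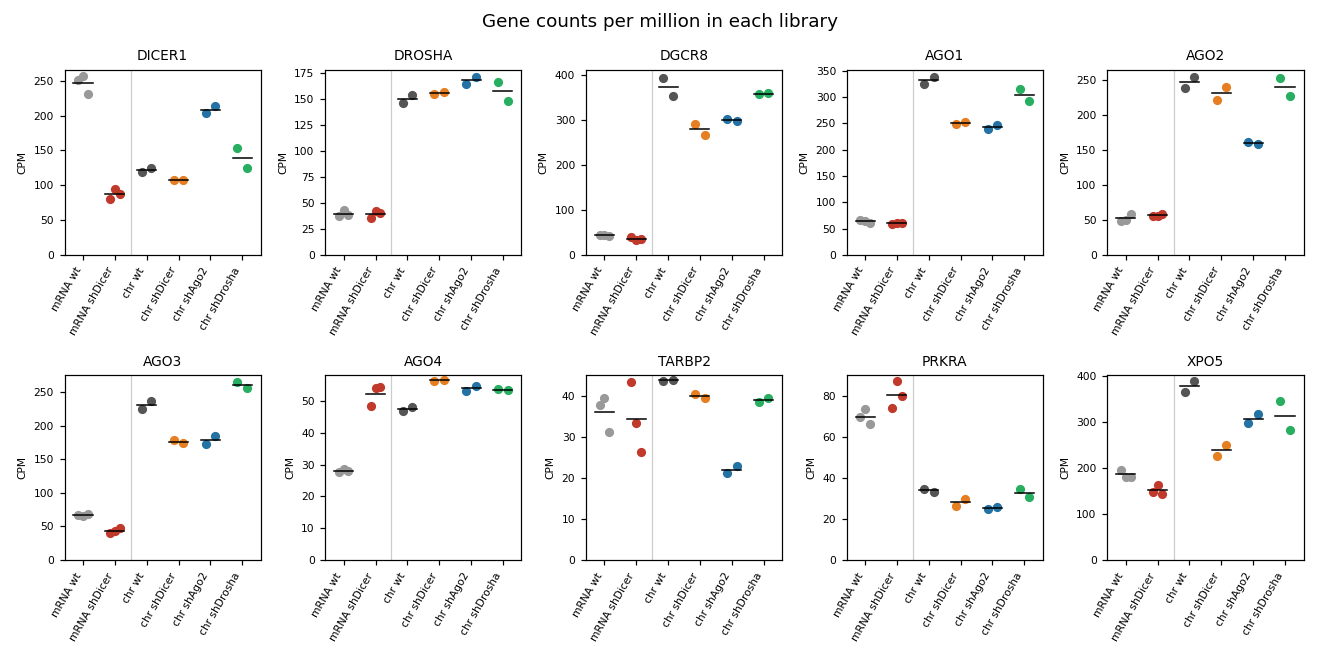
CPM of each member (y axis, from 0) in each library, grouped on the x axis, with points for libraries and a line for the group mean. DICER1 fell from 231 to 257 CPM in mRNA wt to 80.4 to 94.2 in mRNA shDicer, while in chromatin RNA its highest values, 203 and 214, were in chr shAgo2.

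In chromatin RNA the same target was read on RNA bound to chromatin. DGCR8, AGO1, AGO3 and XPO5 fell in chr shDicer and no member rose. DICER1 was at 119 and 124 CPM in chr wt and at 107 and 108 in chr shDicer, lower in both libraries but not past the threshold (log2 fold change -0.18 ± 0.0933, edgeR adjusted p = 0.166). XPO5 was at 366 and 391 CPM in chr wt and at 227 and 251 in chr shDicer (log2 fold change -0.66 ± 0.102, edgeR adjusted p = 0.000294). DGCR8 went from 394 and 353 to 292 and 267 CPM (-0.42 ± 0.0825, edgeR adjusted p = 0.00177). AGO1 (-0.41 ± 0.075) and AGO3 (-0.39 ± 0.0748) were past the threshold of 0.005 as well. Without any 1 library of either group, 1 or 2 of the 4 calls remained. AGO3 was lost each time, AGO1 except without chr shDicer replicate 2, DGCR8 without chr wt replicate 1 (-0.34) or chr shDicer replicate 2 (-0.35), and XPO5 without chr wt replicate 2 (-0.62, edgeR adjusted p = 0.00565). The share of all 32874 genes past it was 21.6%, and the members' median log2 fold change was -0.22 against 0.01 over all genes.

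The difference between the fractions was tested directly, as the shDicer change in RNA-seq minus that in chromatin RNA. DICER1 differed by -1.24 ± 0.119 on the log2 scale (edgeR adjusted p = 7.15e-06) and AGO4 by 0.72 ± 0.124 (edgeR adjusted p = 0.0011), and the other 8 members did not pass, where 5.01% of 31106 genes did. The median over all genes was 0.1. Fraction, library preparation and time of induction changed together and cannot be told apart. The mRNA wt cells received doxycycline, and whether the chr wt cells did was not given. The AGO4 call was lost when counts were scaled by library size only (0.60, edgeR adjusted p = 0.00941). It was lost with counts rebuilt from TPM and transcript length (0.56, edgeR adjusted p = 0.0999), and against neighbouring genes (0.50, edgeR adjusted p = 0.0164). Leaving out any 1 of the 4 chromatin libraries also lost it (0.62 to 0.74). PRKRA passed without mRNA shDicer replicate 1 (0.59, edgeR adjusted p = 0.00428) and against neighbouring genes (0.70, 0.00325).

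In chr shAgo2 the hairpin's target AGO2 fell, TARBP2, PRKRA, AGO1 and AGO3 also fell, and DICER1 rose. AGO2 was at 239 and 255 CPM in chr wt and at 162 and 159 in chr shAgo2 (log2 fold change -0.62 ± 0.0832, a ratio of 0.651, edgeR adjusted p = 9.29e-05). DICER1 rose to 203 and 214 CPM, above every other chromatin library (0.78 ± 0.0926, edgeR adjusted p = 3.59e-05). With counts rebuilt from TPM and transcript length, which removes changes in transcript length from the count, that rise was 0.35 and missed the threshold (edgeR adjusted p = 0.0139). TARBP2, the Dicer partner, had the widest change against wt, though not against its neighbouring genes (-0.38). It read 43.8 and 44.1 CPM in chr wt and 21.3 and 22.9 in chr shAgo2 (-0.99 ± 0.0817, edgeR adjusted p = 1.96e-06). PRKRA, its paralog, read 34.9 and 33.1 against 25.0 and 26.0 CPM and sat near the threshold (-0.42 ± 0.0977, edgeR adjusted p = 0.00478). DICER1, AGO2 and TARBP2 passed with any 1 library of either group left out. AGO3 and PRKRA were lost each time, and AGO1 except without chr wt replicate 1. The AGO2 call was lost, at -0.44, with counts rebuilt from TPM and transcript length (edgeR adjusted p = 0.00516). The background share was 24.5% of 32874 genes for 6 of 10 members, with a median log2 fold change of -0.34 against 0.00.

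The inducible lines were compared with each other, since both were set against the same chr wt libraries. DICER1 was lower in chr shDicer than in chr shAgo2 (log2 difference -0.95 ± 0.0928, edgeR adjusted p = 0.00011). AGO2 was higher by 0.52 ± 0.083 (edgeR adjusted p = 0.00245) and TARBP2 by 0.86 ± 0.0814 (edgeR adjusted p = 8.59e-05), and the other 7 members did not pass, where 2.71% of genes did. With counts rebuilt from TPM and transcript length DICER1 (-0.25) and AGO2 (0.14) no longer passed, and the AGO2 call was lost without any 1 of the 4 libraries (0.46 to 0.58). DICER1 was lost without chr shAgo2 replicate 2 (-0.91, edgeR adjusted p = 0.00517). Against neighbouring genes TARBP2 (0.36, edgeR adjusted p = 0.0259) and AGO2 (0.49, 0.00584) no longer passed. AGO1 (0.04 ± 0.075) and AGO3 (-0.01 ± 0.0748) had the smallest differences.

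In the libraries labelled shDrosha the hairpin's target did not fall in chromatin RNA. The paper reports Drosha knockdown by western blot and measured steady-state Drosha transcripts by qRT-PCR. Those are other measures than chromatin RNA. DROSHA was at 146 and 153 CPM in chr wt and at 166 and 148 in the libraries labelled shDrosha, which overlap (log2 fold change 0.07 ± 0.0795, edgeR adjusted p = 0.697). No RNA-seq library of these cells was analysed here. No member passed the threshold of 0.05 by edgeR, and none did by DESeq2, although 3 members had an unadjusted edgeR p under 0.05, namely AGO3 (0.18 ± 0.0744), AGO4 (0.17 ± 0.0722) and XPO5 (-0.27 ± 0.101). XPO5 passed without shDrosha replicate 1 (-0.42, edgeR adjusted p = 0.0498). The background share was 3.38%. DGCR8, whose hairpins DROSHA cuts, was at 357 and 360 CPM, inside the range of 353 to 394 in chr wt (-0.06 ± 0.0823). Its coding transcript DGCR8-201, which holds all 3 mature sequences shown above in GENCODE 44, was at 7.34 and 6.53 TPM in chr wt and 5.93 and 7.11 in the libraries labelled shDrosha.

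**Figure D2:**
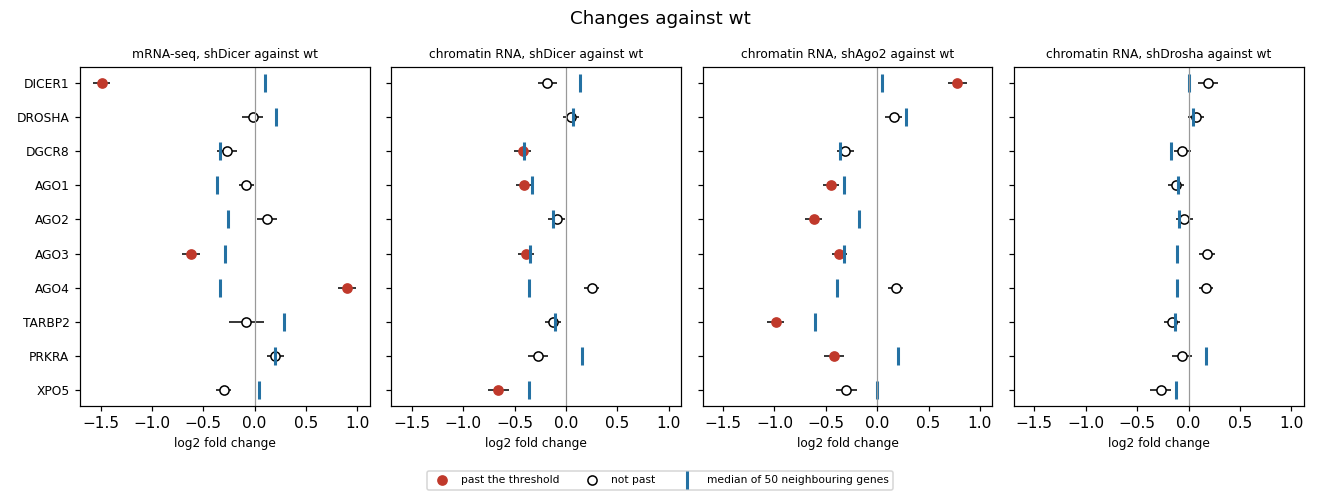
Log2 fold change against wt (x axis) of each member (y axis) in 4 comparisons, with SE bars, filled points past the threshold and blue ticks at the median of the 50 neighbouring genes. AGO1 and AGO3 sat near their neighbours in chr shDicer and chr shAgo2, and AGO4 sat above them in every panel.

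These changes were also set against those of neighbouring genes. AGO4 (chr1:35808016-35857890), AGO1 (chr1:35869808-35930532) and AGO3 (chr1:35930718-36072500, GRCh38, all on the plus strand) lie side by side, and AGO2 lies alone on chromosome 8. Over the 50 tested genes around AGO1 the median log2 fold change was -0.37 in mRNA shDicer, -0.33 in chr shDicer, -0.32 in chr shAgo2 and -0.10 in the libraries labelled shDrosha. Relative to its neighbours AGO1 changed by -0.08 in chr shDicer and -0.13 in chr shAgo2, and AGO3 by -0.04 and -0.06, and none of these passed. AGO4 stood above its neighbours by 1.24 in mRNA shDicer, 0.61 in chr shDicer and 0.57 in chr shAgo2, and passed in all 3. DGCR8 in chr shDicer was at -0.01 relative to its neighbours, whose median was -0.41. In chr shAgo2 AGO2 kept -0.44, TARBP2 -0.38, PRKRA -0.62 and DICER1 0.73, and these passed. Read against neighbours, 1 member passed in chr shDicer in place of 4, and it was AGO4. Copy number of these regions was not tested.

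The paralogs were also read as shares of the summed Argonaute TPM. Over all transcripts AGO2 held 56.5% ± 0.771 of the pool in chr wt and 55.2% ± 2.60 in chr shAgo2 (SD, n = 2 each), which overlap, 57.4% ± 4.15 in chr shDicer and 50.6% ± 1.62 in the libraries labelled shDrosha. AGO2 transcripts of at least 1000 nt summed to 14.7 of its 99.7 TPM in chr wt. Over transcripts of at least 1000 nt, a limit set after seeing the data, AGO2 held 21.3% ± 0.179 in chr wt, 24.5% ± 1.64 in chr shDicer, 18.7% ± 0.364 in chr shAgo2 and 18.8% ± 0.0851 in the libraries labelled shDrosha. The pool itself was 68.6 TPM ± 1.97 in chr wt and 53.2 ± 1.66 in chr shAgo2. Over all transcripts AGO4 held 12.2% ± 0.763 of the pool in mRNA wt and 22.2% ± 2.04 in mRNA shDicer (SD, n = 3 each), with no overlap between the groups. In GENCODE 44 sequences, whose length equals that in the deposited files for 19 of 23 Argonaute transcripts, stretches of 31 bases shared with another Argonaute numbered 2 of 13884 in AGO1, 0 of 15865 in AGO2, 15 of 21205 in AGO3 and 13 of 7416 in AGO4.

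Single transcripts were called less readily than genes. In mRNA shDicer 0 of 56 member transcripts passed by edgeR (9 had an unadjusted p under 0.05), where 0.525% of 45738 transcripts did, and DESeq2 called 5. DICER1-202 had the highest level of the DICER1 transcripts in mRNA wt, at 7.36, 8.54 and 7.25 TPM, and read 1.02, 1.48 and 3.19 in mRNA shDicer (log2 fold change -1.69 ± 0.335, edgeR adjusted p = 0.0217). DICER1-204 had no such gap, at 0.816, 1.71 and 1.41 TPM against 0.555, 1.13 and 0.882. AGO4-201, the full-length AGO4 transcript, read 1.90, 2.09 and 2.00 TPM in wt and 2.65, 3.15 and 3.65 in shDicer (1.04 ± 0.0773, edgeR adjusted p = 0.00124).

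On chromatin DICER1-201 was the DICER1 transcript that passed. It read 3.14 and 3.02 TPM in chr wt, 3.06 and 3.01 in chr shDicer, 7.47 and 6.64 in chr shAgo2 and 3.73 and 3.96 in the libraries labelled shDrosha (chr shAgo2 log2 fold change 1.21 ± 0.0935, edgeR adjusted p = 0.00108). In GENCODE 44 sequences, 43 of 10354 stretches of 31 bases in DICER1-201 and 0 of 7393 in DICER1-202 occurred in no other matched transcript. The deposited lengths of 7 of 13 DICER1 transcripts differ from GENCODE 44, DICER1-201 and DICER1-202 among them. The deposited sequences were not analysed here, and how reads were divided between DICER1-201 and DICER1-202 is uncertain. AGO2-201 read 6.33 and 6.77 TPM in chr wt and 4.31 and 3.93 in chr shAgo2 and did not pass (-0.66 ± 0.124, edgeR adjusted p = 0.017). TARBP2-204, a retained-intron form, read 6.88 and 5.98 TPM in chr wt and 2.97 and 2.49 in chr shAgo2 (-1.21 ± 0.152, edgeR adjusted p = 0.00462). These 2 of 90 member transcripts passed in chr shAgo2, where 2.68% of 114057 did, and neither passed once any 1 library of the 2 groups was left out. In chr shDicer 0 of 90 passed by edgeR (1.97% of all transcripts, 25 at an unadjusted p under 0.05) and 7 by DESeq2. In the libraries labelled shDrosha 0 of 90 passed by edgeR (0% of all transcripts, 7 at an unadjusted p under 0.05) and 1 by DESeq2.

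The share of a transcript within its gene was tested apart from the level of the gene. In mRNA shDicer 0 of 55 member transcripts passed (0.296% of all did), and 0 had an unadjusted edgeR p under 0.05. XPO5-210, a short form annotated for nonsense-mediated decay, rose relative to the rest of XPO5 in chr shAgo2 (log2 1.23, edgeR adjusted p = 0.00417), at 11.1 and 11.6 TPM against 6.35 and 5.46 in chr wt. The XPO5-210 call was lost without chr wt replicate 1 or 2, or without chr shAgo2 replicate 2. In GENCODE 44 sequences, 30 of 770 stretches of 31 bases in XPO5-210 occurred in no other matched transcript. TARBP2-201 was called in all 3 chromatin comparisons (0.684%, 0.8% and 0.773% of all transcripts were called in chr shDicer, chr shAgo2 and the libraries labelled shDrosha). Its values were 0.0047 and 0.0137 TPM in chr wt, 1.67 and 0.789 in chr shDicer, 6.85e-06 and 1.06 in chr shAgo2 and 0.343 and 0.840 in the libraries labelled shDrosha, so the replicates of chr shAgo2 lay on both sides of chr wt. Its level did not pass in any of the 3 comparisons.

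Other genes of the pathway were read from 5 lists, of which 35 genes were tested in RNA-seq and 38 in chromatin RNA. In mRNA shDicer 4 rose and 9 fell, where 15.6% of all genes rose and 14.2% fell. In chr shDicer 2 rose and 9 fell (11% and 10.5% of all genes), in chr shAgo2 1 rose and 14 fell (12.5% and 12.1%), and in the libraries labelled shDrosha 0 rose and 6 fell (1.19% and 2.18%). The medians of the list were -0.21, -0.22, -0.29 and -0.02 on the log2 scale, against 0.01, 0.01, 0.00 and 0.00 over all genes. Counts for single lists rest on 10 genes or fewer and are read against these shares. Among Microprocessor cofactors, proteins that help DROSHA and DGCR8, 4 of 10 fell in mRNA shDicer, 2 in chr shDicer, 3 in chr shAgo2 and 2 in the libraries labelled shDrosha, and none rose. The RNA helicase DDX17 fell by 1.01 on the log2 scale in chr shDicer and in chr shAgo2 and had -0.39 in mRNA shDicer, which did not pass. DDX5, its paralog, fell by 0.98 in mRNA shDicer and did not pass on chromatin (-0.63 in chr shDicer and 0.18 in chr shAgo2). Of the factors that tail or decay precursors, LIN28B, a repressor of let-7 processing, rose by 0.84 in chr shDicer and 0.89 in chr shAgo2 and had 0.21 in mRNA shDicer, which did not pass. The decay factor ZC3H12A rose by 1.25 in mRNA shDicer and had 0.27 in chr shDicer and -0.07 in chr shAgo2, which did not pass. TUT7, a uridylyltransferase, fell by 1.01 in chr shDicer and 0.77 in chr shAgo2 and had -0.45 in mRNA shDicer, which did not pass. KHSRP, of the same list, was lower in chr shDicer (-0.86), chr shAgo2 (-0.97) and the libraries labelled shDrosha (-0.84). In mRNA shDicer KHSRP had -0.29, which did not pass.

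Chaperones that load the Argonautes fell or did not pass in all 4 comparisons. In mRNA shDicer 2 of 8 were lower (14.2% of all genes) and in chr shDicer 2 of 8 (10.5%). In chr shAgo2 5 of 8 were lower (12.1%) and in the libraries labelled shDrosha 3 of 8 (2.18%). STIP1, the co-chaperone that links HSP70 and HSP90, fell by 0.95 in mRNA shDicer, 1.09 in chr shDicer, 1.36 in chr shAgo2 and 0.57 in the libraries labelled shDrosha. Partners of the loaded complex were mixed in mRNA shDicer, with 3 of 10 higher and 3 lower, led by the helicase MOV10 (1.10) and by TSN (-0.68). In chr shDicer 1 rose (MOV10, 0.34) and 2 fell, with TNRC6A at -0.61 (-0.16 in mRNA shDicer, which did not pass). In chr shAgo2 3 of 10 partners fell, with ZSWIM8 at -0.65 (1.05 in mRNA shDicer), and in the libraries labelled shDrosha 0 of 10 passed. No gene of the PIWI clade was tested in RNA-seq, and 2 of 4 were tested in chromatin RNA without passing.

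The genes most like DICER1 over the 8 chromatin libraries, by Pearson's r of log2 CPM among 15590 genes, were NUSAP1 (0.99), EHBP1 (0.98) and CILK1 (0.98). For AGO2 they were MCM3AP-AS1 (0.99), STAT2 (0.988) and BAZ2A (0.985), and for DROSHA they were RPL37 (0.981), MED10 (0.96) and ZNF343 (0.958). The 8 points fall into 4 groups of 2 libraries each, and the values are descriptive.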

How the data were processed

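Transcript abundances of 6 RNA-seq and 8 chromatin RNA libraries were used. The 6 small RNA samples were not analysed here. The authors pseudo-aligned stranded reads to an Ensembl transcriptome with kallisto and deposited an expected count and a TPM per transcript and library. The RNA-seq samples are labelled polyA RNA while the stated kit is for total RNA. Transcript IDs without version were matched to GENCODE 44 (GRCh38), 89.2% of 217082, and counts were summed per gene and rounded. Genes and transcripts passing filterByExpr were tested with edgeR 4.0.16 (R 4.3.3, TMM, quasi-likelihood) over the whole table with Benjamini-Hochberg adjustment; chromatin libraries shared 1 fit. Transcript shares were tested with diffSpliceDGE. DESeq2 1.42.0 was an alternative. Thresholds were adjusted p of 0.001 (RNA-seq), 0.005 (chr shDicer, chr shAgo2, their difference and the difference between fractions) and 0.05 (shDrosha). The 10 members and all lists were chosen with earlier results of these data known. Named genes were the members and the 3 most correlated genes. Per list, some but not all of the genes past the threshold with the highest or lowest change were named. Named transcripts were some of those with 10% of the gene's TPM or a call. Scripts were tested on simulated data. All reported fits used group only, without pairing. Same-numbered RNA-seq libraries deviated together (lowest correlation of 3 pairs 0.12). A fit with the replicate number as a block was therefore run there as an alternative, and it called 3 members too. An estimate of 3 counts, taken as the floor, was 0.147 to 0.306 CPM, which covers counting error only. Transcript estimates carry assignment error that was not included.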

Additional observations from a re-analysis of the deposited data

Results flagged for a closer look

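The shDicer change of DICER1 differed between RNA-seq and chromatin RNA by -1.24 on the log2 scale, at -1.49 in RNA-seq and -0.18 in chromatin RNA, by the test of the difference itself. That of AGO4 differed by 0.72, at 0.90 in RNA-seq and 0.25 in chromatin RNA. The AGO4 difference lost its call under several alternatives, while that of DICER1 kept its call under all that were run. Fraction, library preparation and time of induction differ together in the comparison of fractions and cannot be told apart. Doxycycline was given to the mRNA wt cells, and its use in the chr wt cells was not given in the sources.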

How the results depend on the processing

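The 60 member changes were recomputed 800 times, and 686 kept their direction and side of the threshold, 62 lost the call, 12 gained one and 40 changed sign. None of those that changed sign had passed as reported. Of 18 calls, 4 held under every alternative run for them, namely AGO4 (0.83 to 1.24) and DICER1 (-1.59 to -1.23) in mRNA shDicer, the DICER1 difference between fractions (-1.41 to -1.20), and TARBP2 in chr shAgo2 (-1.05 to -0.38). With the neighbouring genes' median taken out, 1 member passed in chr shDicer in place of 4 and 1 in place of 3 between the inducible lines. With counts scaled from TPM, 2 passed in place of 4 in chr shDicer, and 3 in place of 6 in chr shAgo2. With the same counts 1 passed in place of 3 between the inducible lines and 1 in place of 2 between fractions. With library size only 1 passed between fractions.

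Without 1 library the members called were 2 to 3 in mRNA shDicer, 1 to 2 in chr shDicer, 3 to 4 in chr shAgo2, 0 to 1 in the libraries labelled shDrosha, 1 to 2 between the inducible lines and 1 to 3 between fractions. Member transcripts called were 0 in every such fit, and those with changed usage were 0 in chr shDicer and 0 to 1 in chr shAgo2 and the libraries labelled shDrosha. A chromatin group left with 1 library was assumed to vary like the others. DESeq2 called 5 transcripts in mRNA shDicer, 7 in chr shDicer, 10 in chr shAgo2 and 1 in the libraries labelled shDrosha. In chr shAgo2, 1 transcript in place of 2 passed with library size only, and 1 usage change in place of 2 without the low-count filter. The cause was not tested.

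With the replicate number as a block, 3 members passed in chr shDicer, 4 in chr shAgo2, 0 in the libraries labelled shDrosha and 2 between the inducible lines, and in chr shAgo2 0 transcripts and 1 usage change passed. Same-numbered chromatin libraries share only a number, and their deviations correlated at 0.277 for chr wt with chr shDicer, 0.0956 with chr shAgo2 and -0.368 with the libraries labelled shDrosha. With the shDrosha numbers crossed in the replicate block, 4, 8 and 1 members passed in chr shDicer, chr shAgo2 and the libraries labelled shDrosha.

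The sign changes, all of members that had not passed, were as follows. Against neighbours DGCR8 (0.06) and AGO1 (0.30) turned in mRNA shDicer, DROSHA (-0.02) and AGO2 (0.04) in chr shDicer, DROSHA (-0.12) and DGCR8 (0.05) in chr shAgo2, and DGCR8 (0.11) and AGO2 (0.06) in the libraries labelled shDrosha. AGO3 (0.02) turned between the inducible lines, and DGCR8 (-0.16), AGO2 (0.00), TARBP2 (-0.07) and XPO5 (-0.08) between fractions. With library size only AGO2 turned in the libraries labelled shDrosha (0.01), and between fractions DROSHA (-0.11) and TARBP2 (-0.01) did, as with DESeq2 (-0.16 and -0.05). Without the low-count filter DROSHA turned in mRNA shDicer (0.03). With counts scaled from TPM AGO2 turned in mRNA shDicer (-0.26), DICER1 in chr shDicer (0.10), and DROSHA (-0.08) and AGO3 (0.28) between fractions. Without 1 library the values crossed 0 for DROSHA (-0.06 to 0.05) and TARBP2 (-0.29 to 0.08) in mRNA shDicer, for DGCR8 (-0.14 to 0.02), AGO2 (-0.12 to 0.04), DROSHA (-0.02 to 0.15) and PRKRA (-0.15 to 0.04) in the libraries labelled shDrosha, for AGO3 between the inducible lines (-0.06 to 0.04), and for DROSHA (-0.11 to 0.07) and TARBP2 (-0.10 to 0.21) between fractions.

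The Argonaute shares moved with the transcripts summed. Over those of at least 1000 nt AGO2 held 21.3% in chr wt, 24.5% in chr shDicer, 18.7% in chr shAgo2 and 18.8% in the libraries labelled shDrosha, and AGO4 held 15.0% in mRNA wt and 28.1% in mRNA shDicer. Single transcripts had fewer counts behind them than genes.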
